A study of Mus musculus with 8 samples.

Results

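ATF4 is the transcription factor that cells make when amino acids run short or proteins misfold, and 10 genes were examined here in cultured mouse embryos: Atf4 itself, the serine, glycine and one-carbon enzymes Phgdh, Psat1, Shmt2 and Mthfd2, the asparagine synthetase Asns, both chains of the large neutral amino acid transporter (Slc7a5 and Slc3a2), and the stress targets Chac1 and Trib3. The deposited tables carry no gene names, so the 10 genes stand for 10 of 31899 entries of the 8-cell table and 10 of 29202 entries of the morula table. The entries were selected on lengths recovered from the measured values themselves, aligned in Ensembl identifier order to annotated exonic lengths, and the 10 symbols were listed with earlier results of these data in view. Every gene name below is therefore inferred and not read from the files.

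Wild-type embryos of ICR mice were cultured in KSOM medium and collected at the 8-cell stage or as morulae. Control embryos received no inhibitor. Treated embryos received 100 μM trimetazidine (TMZ), a drug that blocks the thiolase step in the oxidation of long-chain fatty acids. The labels put the start of treatment at the 2-cell stage, while the study's methods name both that stage and the zygote for its inhibitors. Each of the 4 groups had 2 libraries of amplified full-length mRNA. The labels do not say how many embryos a library held or whether the 2 libraries of a group came from separate cultures. A figure legend of the study calls 2 replicates biologically independent, while its methods name a larger number of biological replicates. The P values measure only the spread between these libraries. The values are FPKM, fragment numbers divided by gene length and by the total of the library, and the recovered totals ran from 31672356 to 64814423 fragments a library. The TMZ libraries of 8-cell embryos have the same column header and are called A and B. The labelled cell type was checked on marker lists: Dppa3, a maternal and preimplantation factor, was at 10695 FPKM or more in every library, 5 of 8 cumulus and granulosa cell markers had an entry in the 8-cell table and 3 of 8 in the morula table, and none of these reached 0.1 FPKM. Of 9 preimplantation markers, Sox2 was at 0 in all 4 morula libraries and at 0.12 FPKM or less in the 8-cell libraries. Cdx2 was at 0.368 to 1.10 FPKM in 8-cell libraries and at 1.19 to 4.01 FPKM in morula libraries. Gata3 was at 1.08 to 1.67 FPKM and at 1.98 to 4.22 FPKM. Klf4, Nanog, Pou5f1, Tead4 and Tfap2c were above 5 FPKM in all libraries.

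When amino acids or heme are short, or when proteins misfold in the endoplasmic reticulum, kinases phosphorylate the initiation factor eIF2alpha. General translation then slows, while the Atf4 transcript is translated better because of short reading frames ahead of its coding sequence. ATF4 pairs with C/EBP family proteins and binds composite sites called C/EBP-ATF response elements (CARE) in genes for amino acid synthesis, uptake and tRNA charging. Since ATF4 is set largely at translation, an Atf4 mRNA level is not a measure of the protein.

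The reliability of the names differed between the 10 genes. All 10 were placed in both tables with a posterior probability of at least 0.9997. The length used was built as a whole multiple of the length recovered in each table, so that property is no check of a name. Phgdh (2486 bases) and Slc7a5 (3708 bases) matched the annotated exonic length exactly. Psat1, Shmt2, Mthfd2, Slc3a2, Atf4, Chac1 and Trib3 were within 3% of it. Asns was not: the entry had 2735 bases against 5659 in the annotation, so its name rests on its place between neighbouring genes. When each table was aligned alone, Trib3 reached only 0.8995 at the 8-cell stage and 0.6896 in morulae, under the minimum of 0.95. Trib3 met it only after lengths were shared between the tables. In GRCm39 coordinates the genes lie at chr15:80139372-80141745 (Atf4), chr6:7671667-7728461 (Asns), chr19:15882039-15924701 (Psat1), chr3:98220484-98255047 (Phgdh), chr10:127352266-127358323 (Shmt2), chr6:83282673-83302890 (Mthfd2), chr8:122607884-122634433 (Slc7a5), chr19:8684245-8701108 (Slc3a2), chr2:119180757-119184866 (Chac1) and chr2:152179337-152191958 (Trib3).

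The promoters show where the CARE letters are present among these genes. RefSeq windows of 300 bases (250 before the annotated start and 50 after it, GRCm38.p6) were held for 9 of the 10 genes, all but Slc7a5. TGATGNAA was searched on both strands, and its stricter form TGATGCAA lies within it. Of the 9 genes, 3 held TGATGNAA (Asns, Chac1 and Trib3), against 4.51% of 27025 gene symbols with a window. Only Chac1 among the 9 held TGATGCAA, against 1.03% of symbols. Asns, Chac1 and Trib3 are printed for their match, in capitals, and Phgdh and Shmt2, the tested genes with the lowest log2 fold changes in TMZ morulae, for comparison. The bases before the start are shown, 5′ to 3′ along each gene, except for Trib3, where 30 bases around a match behind the start are given.
Asns, chr6:7693210-7693459, - strand: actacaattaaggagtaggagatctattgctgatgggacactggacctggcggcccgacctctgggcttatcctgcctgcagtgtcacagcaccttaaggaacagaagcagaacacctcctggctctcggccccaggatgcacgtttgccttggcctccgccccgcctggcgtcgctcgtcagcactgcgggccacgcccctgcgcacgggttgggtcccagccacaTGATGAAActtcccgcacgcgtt
Chac1, chr2:119350992-119351241, + strand: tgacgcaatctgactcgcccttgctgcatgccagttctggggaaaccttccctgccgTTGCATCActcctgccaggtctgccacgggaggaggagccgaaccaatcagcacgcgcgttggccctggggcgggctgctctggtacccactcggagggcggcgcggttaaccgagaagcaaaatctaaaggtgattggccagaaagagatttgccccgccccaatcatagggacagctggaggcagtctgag
Trib3, chr2:152344028-152344057, - strand: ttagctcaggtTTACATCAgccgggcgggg
Phgdh, chr3:98339970-98340219, - strand: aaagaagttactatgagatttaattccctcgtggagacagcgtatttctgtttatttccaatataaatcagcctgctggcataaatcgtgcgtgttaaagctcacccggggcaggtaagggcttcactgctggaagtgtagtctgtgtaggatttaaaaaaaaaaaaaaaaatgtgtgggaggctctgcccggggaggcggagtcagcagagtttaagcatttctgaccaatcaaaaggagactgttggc
Shmt2, chr10:127522445-127522694, - strand: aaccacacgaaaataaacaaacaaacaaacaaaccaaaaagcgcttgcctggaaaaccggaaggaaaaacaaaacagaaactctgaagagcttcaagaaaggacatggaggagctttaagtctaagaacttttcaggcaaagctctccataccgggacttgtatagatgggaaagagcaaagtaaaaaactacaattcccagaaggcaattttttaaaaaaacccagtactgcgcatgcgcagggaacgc
The first capital letter lies at -23 from the start in Asns, at -193 in Chac1, where the motif is on the opposite strand, and at 15 in Trib3, also on the opposite strand. No match in a window says only that these letters are not in it.

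In control embryos the 10 genes spanned a wide range of levels, and their order was nearly the same at both stages. FPKM is a level per length, so the genes can be ranked. Psat1, the aminotransferase of the serine pathway, was highest, with 223 and 166 FPKM in the 8-cell controls and 257 and 266 FPKM in the morula controls. Phgdh, the dehydrogenase that opens the same pathway, followed at the 8-cell stage with 88.4 and 49.9 FPKM, and Atf4 with 61.04 and 35.1 FPKM. These 2 genes overlapped at the 8-cell stage. In morula controls Atf4 (74.7 and 76.5 FPKM) stood above Phgdh (68.4 and 51.8 FPKM).

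Slc3a2, the heavy chain that carries several amino acid transporters to the membrane, was at 22.2 and 20.2 FPKM in 8-cell controls and at 34.7 and 75.8 FPKM in morula controls. The morula libraries thus differed more between themselves than the 8-cell ones. Its partner Slc7a5, the chain that moves leucine and other large neutral amino acids, was near the minimum of 1 FPKM used for the tests. It was at 0.819 and 0.531 FPKM in 8-cell controls (124 and 64 fragments). In morula controls it was at 0.996 and 1.30 FPKM (122 and 162 fragments). Asns was at 20.1 and 12.99 FPKM at the 8-cell stage and at 14.1 and 18.9 FPKM in morulae. Mthfd2 and Shmt2, the mitochondrial enzymes that pass the serine carbon on to folate, were at 7.74 and 6.06 FPKM and at 6.45 and 1.26 FPKM in 8-cell controls. Chac1 (1.17 and 2.88 FPKM), which degrades glutathione, and Trib3 (1.34 and 0.811 FPKM), a pseudokinase that damps the ATF4 response, were low and overlapped.

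The step from 8-cell to morula controls was described without a test, because the tables were made separately. In 7 of the 10 genes both morula controls lay above both 8-cell controls, and in none did both lie below. When Slc7a5, whose 4 controls averaged under 1 FPKM, is left out, it was 6 of 9 genes, against 22.8% above and 32% below over the 9633 genes named at both stages that reached this minimum. The 7 genes were Atf4, Psat1, Shmt2, Mthfd2, Slc7a5, Slc3a2 and Trib3. The ratio of the means was largest in Slc3a2 (2.61) and Shmt2 (2.57). In Shmt2 it rests on a low second 8-cell library, since morula controls were at 9.81 and just under 10 FPKM and the first 8-cell control at 6.45 FPKM. Atf4 was 1.57 times as high in morula controls, Mthfd2 1.58 times and Psat1 1.34 times. Asns, with a mean of 16.5 FPKM at each stage, Phgdh (ratio 0.869) and Chac1 (0.667) overlapped between the stages.

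**Figure D1:**
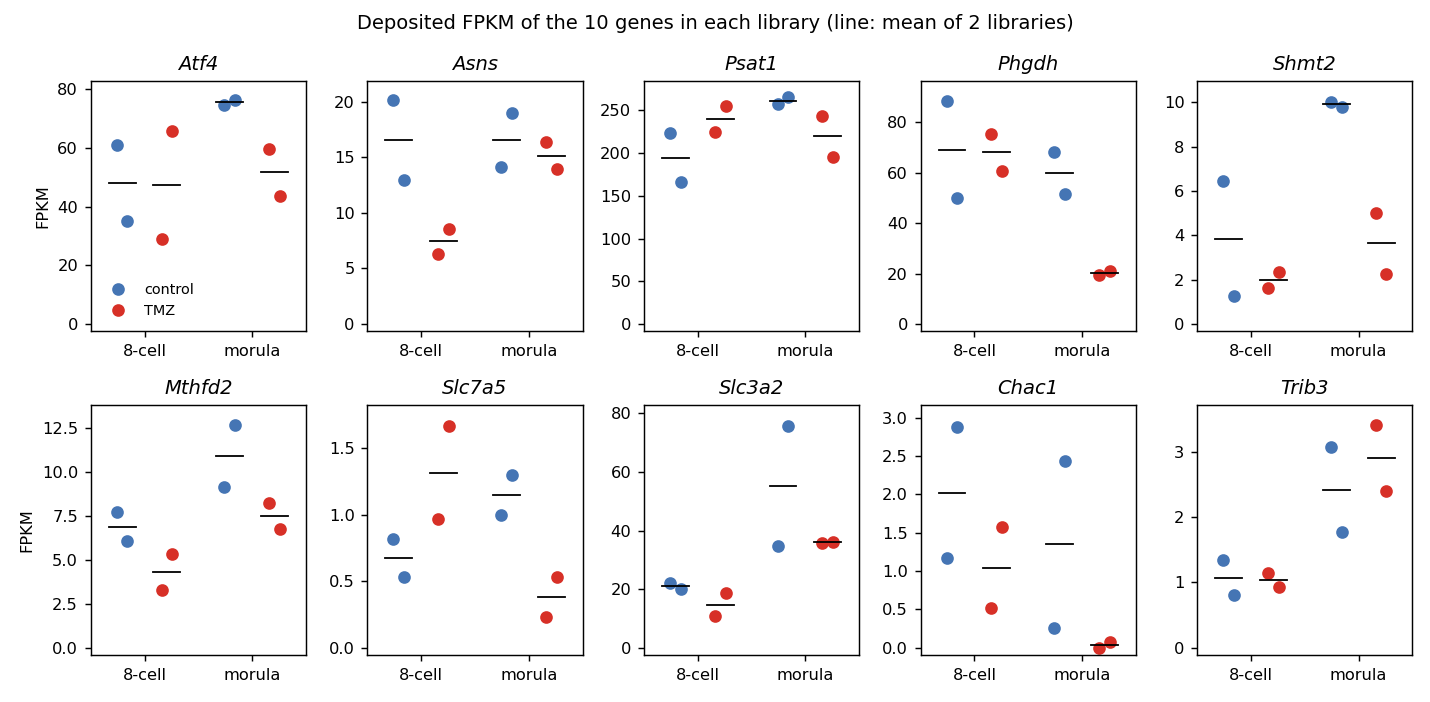
FPKM of each gene (vertical axis, linear, from 0, a separate scale in each panel) in control (blue) and TMZ (red) libraries of 8-cell embryos and morulae, with a line at the mean of the 2 libraries. In morulae the TMZ libraries of Phgdh (19.3 and 20.9 FPKM) and Shmt2 (5.00 and 2.25 FPKM) lie below their controls, and at the 8-cell stage those of Asns do (6.29 and 8.56 FPKM).

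At the 8-cell stage the effect of TMZ on these genes was small against the spread between libraries. Of the 9 genes tested, 1 passed the threshold used for the study's comparisons (P below 0.05 before adjustment, together with more than 0.5 on the log2 scale): Asns, which was lower, and none was higher. Across all 10021 entries tested, 6.31% passed, 4.96% lower and 1.35% higher, so 1 of 9 is close to the background. No entry had a Benjamini-Hochberg adjusted p under 0.05 by limma, and 632 had an unadjusted P under 0.05. The 9 genes had a median log2 fold change of -0.46 against -0.19 over all entries tested.

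Asns makes asparagine from aspartate and glutamine and is the textbook target of ATF4 under amino acid shortage. It was at 20.1 and 12.99 FPKM in control embryos and at 6.29 and 8.56 FPKM in TMZ libraries A and B. Both TMZ libraries lay below both controls. The log2 fold change of FPKM + 1 was -1.04 ± 0.38 (SE, n = 2 libraries per group; limma, unadjusted P = 0.022, adjusted p = 0.771). The call was lost with median-ratio scaling of the libraries (limma, -0.78, unadjusted P = 0.052), without control 1 (-0.74, unadjusted P = 0.222) and without TMZ A (-0.85, unadjusted P = 0.055). The recovered length of this entry did not match the annotation, so it is uncertain that the value belongs to Asns.

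Atf4 itself did not separate the groups. It was at 61.04 and 35.1 FPKM in controls and at 29.1 and 65.9 FPKM in TMZ libraries A and B, so that library A was the lowest of the 4 and B the highest (log2 fold change -0.08 ± 0.44). Phgdh overlapped as well, with 75.4 and 60.8 FPKM in TMZ libraries inside the control range of 49.9 to 88.4 FPKM (0.03 ± 0.34). Psat1 was at 224 and 256 FPKM in TMZ libraries, just above the higher control at 223 FPKM, with a log2 fold change of 0.31 ± 0.27 (limma, unadjusted P = 0.280). For the serine pathway enzymes the 8-cell data therefore gave no difference beyond the spread between libraries.

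Mthfd2 and Slc3a2 lay below both controls in both TMZ libraries without passing the threshold. Mthfd2 was at 3.29 and 5.35 FPKM against 7.74 and 6.06 FPKM in controls (-0.59 ± 0.40). Slc3a2 was at 10.7 and 18.7 FPKM against 22.2 and 20.2 FPKM (-0.54 ± 0.37). With Asns these make 3 genes of 9 whose TMZ libraries lay below both controls, and Psat1 makes 1 of 9 above. Over all entries tested, 29.6% lay below and 8.09% above, and 69.1% had a negative log2 fold change against 7 of these 9 genes. With median-ratio scaling, the median over all entries moved from -0.19 to 0.05 (log2) and the calls over all entries from 135 higher and 497 lower to 292 higher and 255 lower.

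The remaining 8-cell values were low. Shmt2 was at 1.63 and 2.36 FPKM in TMZ libraries, between the controls at 6.45 and 1.26 FPKM (-0.46 ± 0.56). Chac1 was at 0.511 and 1.57 FPKM in TMZ libraries, from 36 and 167 fragments (-0.56 ± 0.45), and Trib3 at 1.14 and 0.922 FPKM (-0.02 ± 0.37). Slc7a5 was at 0.965 and 1.67 FPKM in TMZ libraries, above both controls, but its mean of 0.996 FPKM over the 4 libraries was under the minimum of 1 FPKM and it was not tested.

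In morulae, Phgdh, Shmt2 and Atf4 were lower under TMZ, and none of the 10 genes was higher past the threshold. The 3 genes were 3 of 8 tested. Across all 9685 entries tested, 17.9% passed, 10.7% lower and 7.16% higher. None of the 3 had an adjusted p under 0.05 by limma (3 of 9685 entries did, and 1900 had an unadjusted P under 0.05). The median log2 fold change was -0.49 over the 8 genes and -0.08 over all entries. Lower RNA per cell and fewer cells with a transcript cannot be told apart in libraries of whole embryos.

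Phgdh showed the widest separation. It was at 68.4 and 51.8 FPKM in controls (5615 and 4319 fragments) and at 19.3 and 20.9 FPKM in TMZ morulae (1571 and 1647 fragments). The TMZ mean was 0.335 of the control mean, and both TMZ libraries were below every control and TMZ library of the 8-cell table, where the lowest was at 49.9 FPKM. The log2 fold change was -1.52 ± 0.20 (SE, n = 2 libraries per group; limma, unadjusted P = 0.000164, adjusted p = 0.140). It stayed past the threshold in all 11 alternatives run, between -1.72 and -1.32.

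Shmt2, which splits serine into glycine and a one-carbon unit in mitochondria, was at just under 10 and 9.81 FPKM in controls and at 5.00 and 2.25 FPKM in TMZ morulae, and the groups did not overlap. Both TMZ libraries were inside the range of the 8-cell libraries, 1.26 to 6.45 FPKM. The log2 fold change was -1.30 ± 0.31 (limma, unadjusted P = 0.00494, adjusted p = 0.167), and it passed the threshold in all 11 alternatives, between -1.74 and -0.86. The smaller value was that without TMZ library 2, the lower of the TMZ libraries.

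Atf4 was at 74.7 and 76.5 FPKM in control morulae and at 59.8 and 43.7 FPKM in TMZ morulae. Both TMZ libraries lay below the controls, which were close to each other. The log2 fold change was -0.55 ± 0.20 (limma, unadjusted P = 0.028, adjusted p = 0.213), just beyond the limit of 0.5. The call was lost with median-ratio scaling (limma, -0.43, unadjusted P = 0.056) and without control 1 (-0.57, unadjusted P = 0.060), control 2 (-0.54, unadjusted P = 0.072) or TMZ library 2 (-0.33, unadjusted P = 0.202).

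Other enzymes of the same route moved less. Psat1 was at 243 and 196 FPKM in TMZ morulae against 257 and 266 FPKM in controls (-0.26 ± 0.16; limma, unadjusted P = 0.159), so that its TMZ mean was 0.839 of control beside 0.335 for Phgdh. Mthfd2 was at 8.25 and 6.78 FPKM against 9.15 and 12.7 FPKM (-0.48 ± 0.23; limma, unadjusted P = 0.083). Neither overlapped between the groups, and neither passed the threshold. With Atf4, Phgdh and Shmt2 they make 5 of 8 tested genes whose TMZ libraries lay below both controls, and none lay above. Over all entries tested, 33.3% lay below and 22.3% above, and 57.3% had a negative log2 fold change against 7 of these 8 genes.

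Asns, lower at the 8-cell stage, was at 16.3 and 13.9 FPKM in TMZ morulae and at 14.1 and 18.9 FPKM in controls, with the groups overlapping (-0.11 ± 0.22). Slc3a2 depended on 1 library: it was at 35.9 and 36.01 FPKM in TMZ morulae, close to control 1 at 34.7 FPKM, while control 2 stood at 75.8 FPKM (-0.50 ± 0.34). Without control 2 the log2 fold change was 0.05, and without control 1 it was -1.06 and past the threshold. Trib3 was at 3.42 and 2.41 FPKM against 3.08 and 1.77 FPKM (0.21 ± 0.28), the only positive value of the 8.

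Slc7a5 and Chac1 had means under 1 FPKM over the morula libraries and were not tested. Slc7a5 was at 0.996 and 1.30 FPKM in controls (122 and 162 fragments) and at 0.23 and 0.528 FPKM in TMZ morulae (28 and 62 fragments). Without the filter on low values its log2 fold change was -0.64 (limma, unadjusted P = 0.043, adjusted p = 0.485). Chac1 had 14 and 134 fragments in controls and 0 and 4 in TMZ morulae. A count of 0 allows up to 0.0559 FPKM in that library, a limit that covers counting error only, and the control values, 0.259 and 2.44 FPKM, differed from each other by far more than that.

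**Figure D2:**
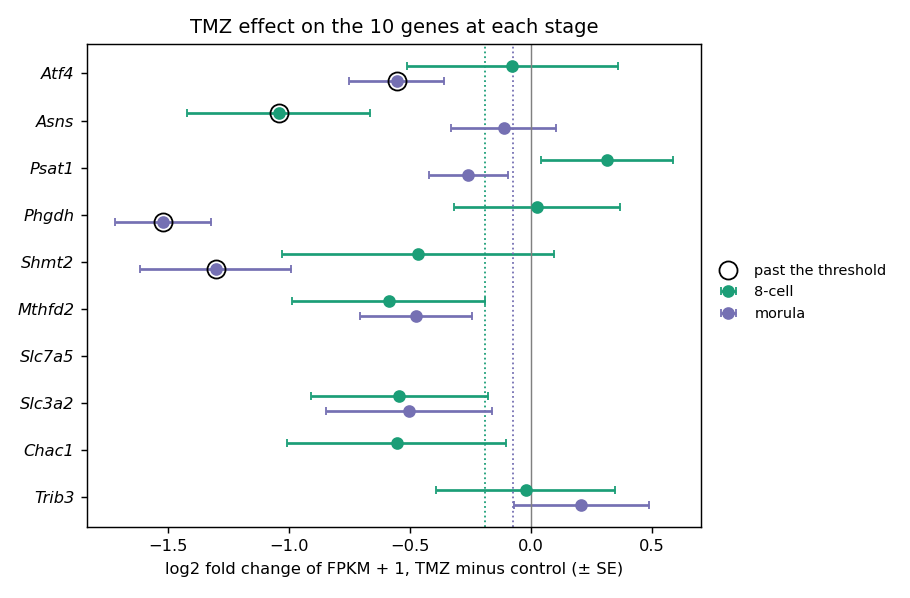
Log2 fold change of FPKM + 1, TMZ minus control (horizontal axis, ± SE, n = 2 libraries per group), of each gene at the 8-cell stage (green) and in morulae (purple). Ringed points passed the threshold, dotted lines mark the median of all entries tested at each stage, and Slc7a5 and the morula value of Chac1 are missing because they were not tested. Asns at the 8-cell stage (-1.04) and Phgdh (-1.52), Shmt2 (-1.30) and Atf4 (-0.55) in morulae are ringed.

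The difference of the TMZ effect between the stages was tested directly over 9395 genes assigned in both tables. Phgdh was the only 1 of 9 tested genes with an unadjusted P under 0.05, against 7.49% of all genes. Its effect was lower in morulae than at the 8-cell stage by a log2 difference of -1.55 ± 0.41 (limma, unadjusted P = 0.00432, adjusted p = 0.424), with 2 of 2 morula TMZ libraries below both controls and the 8-cell groups overlapping. Asns differed in the other direction by 0.93 ± 0.42 (limma, unadjusted P = 0.052). Shmt2 (-0.84 ± 0.73) and Atf4 (-0.48 ± 0.55) were not shown to respond differently at the stages, although each passed the threshold in morulae and not at the 8-cell stage. No gene had an adjusted p under 0.05 by limma, and 704 had an unadjusted P under 0.05.

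**Figure D3:**
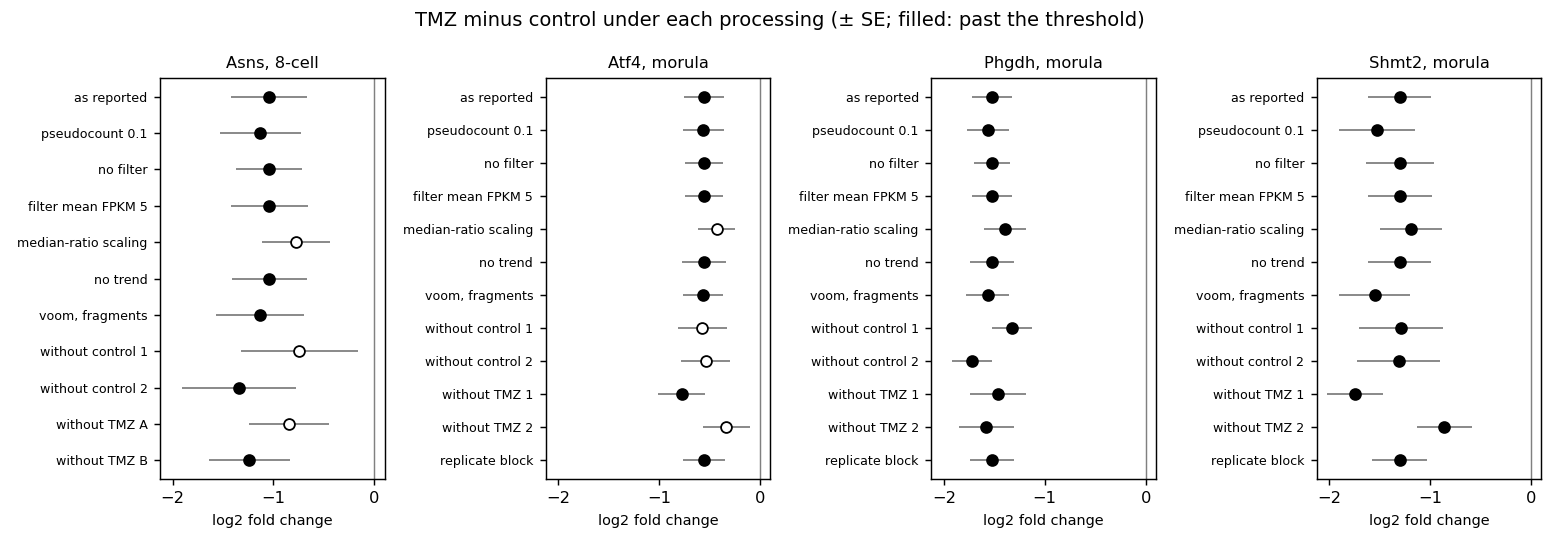
Log2 fold change, TMZ minus control (horizontal axis, ± SE), of the 4 genes past the threshold, each at its stage, with the processing as reported in the top line and each alternative below it. Filled points passed the threshold: Phgdh and Shmt2 are filled throughout, Atf4 is open in 4 of 11 alternatives and Asns in 3 of 10.

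The rest of the pathway was read from lists of genes that had been grouped by function with earlier results known. Of 13 other serine, glycine and one-carbon enzymes, 9 were tested at each stage. None passed the threshold at the 8-cell stage. In morulae 1 did, the cytosolic folate enzyme Mthfd1, at 6.78 and 9.17 FPKM in controls and 5.13 and 3.57 FPKM under TMZ (-0.75 ± 0.25; limma, unadjusted P = 0.023, adjusted p = 0.208). This 1 of 9 stands beside 17.9% of all entries past the threshold, and the call was lost without control 2 or TMZ library 2. The number of calls in the list changed in 5 alternatives and stayed in 6. Where it changed and Mthfd1 was kept, further enzymes of the list passed. The median log2 fold change of the list in morulae was -0.07, next to -0.08 over all entries.

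Among 10 other amino acid synthesis enzymes and 12 other amino acid transporters, none of the tested genes (6 and 3 at the 8-cell stage, 5 and 3 in morulae) passed the threshold. In morulae all 5 tested enzymes and all 3 tested transporters had negative log2 fold changes, as did 57.3% of all entries, with medians of -0.26 and -0.29 beside -0.08 over all entries. With median-ratio scaling these medians were -0.13 and -0.19. The scaling also moved the values of all entries upward, so these medians are not to be set beside -0.08. Most transporters of the list were too low for the test, so the uptake side of the response was hardly tested.

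Of 14 other stress targets of ATF4, 8 were tested at each stage. At the 8-cell stage 1 was past the threshold: Eif4ebp1, an inhibitor of cap-dependent translation, at 72.9 and 86.0 FPKM in controls and 57.8 and 40.6 FPKM in TMZ libraries (-0.70 ± 0.31; limma, unadjusted P = 0.049, adjusted p = 0.771). Over all entries 6.31% passed, and this call was lost in 7 of 10 alternatives: a pseudocount of 0.1, no filter on low values, median-ratio scaling, no trended prior in limma, and without control 1, control 2 or TMZ B. In morulae 2 were lower: Cebpg, a C/EBP protein that pairs with ATF4, at 13.7 and 16.7 FPKM against 9.30 and 10.9 FPKM under TMZ (-0.55 ± 0.20; limma, unadjusted P = 0.033, adjusted p = 0.223), and Ppp1r15a (GADD34), a subunit of the eIF2alpha phosphatase, at 9.42 and 14.2 FPKM against 7.52 and 6.97 FPKM (-0.61 ± 0.24; limma, unadjusted P = 0.041, adjusted p = 0.238). All 8 tested targets had negative values in morulae, with a median of -0.39, where 57.3% of all entries were negative with a median of -0.08, 17.9% passed the threshold and 10.7% were lower past it. Both morula calls were lost with median-ratio scaling and without control 2, TMZ library 1 or TMZ library 2, and that of Ppp1r15a also with no filter.

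Upstream of ATF4, 10 genes of eIF2alpha phosphorylation and its control gave no call at the 8-cell stage and 3 of 5 tested in morulae, where 17.9% of all entries passed. Impact, which restrains the amino acid sensing kinase GCN2, was higher at 16.3 and 18.3 FPKM under TMZ against 7.91 and 7.59 FPKM in controls (1.06 ± 0.19; limma, unadjusted P = 0.000961, adjusted p = 0.161). Its TMZ values lay inside the range of the 8-cell libraries, 12.4 to 23.1 FPKM. Eif2s1, which encodes eIF2alpha itself, was higher at 265 and 326 FPKM against 221 and 183 FPKM (0.55 ± 0.18; limma, unadjusted P = 0.020, adjusted p = 0.202). Oma1, the mitochondrial protease that relays mitochondrial stress, was lower at 3.61 and 2.44 FPKM against 4.43 and 7.21 FPKM (-0.74 ± 0.29; limma, unadjusted P = 0.037, adjusted p = 0.231). Impact stayed past the threshold in all 11 alternatives. Eif2s1 and Oma1 fell short of it without control 2 or TMZ library 2, which left 1 call of 5, and Oma1 also with median-ratio scaling and with no filter.

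Chaperones of the endoplasmic reticulum are the ATF6 and XBP1 side of the stress response. Calls were made for 1 of 12 tested at the 8-cell stage and 2 of 12 in morulae. These counts are close to the shares of all entries, 6.31% and 17.9%. Calr was lower at the 8-cell stage, at 9.14 and 12.6 FPKM under TMZ against 30.3 and 15.5 FPKM (-0.95 ± 0.40; limma, unadjusted P = 0.042, adjusted p = 0.771). That call was lost with no filter, median-ratio scaling, no trended prior, and without control 1 or TMZ A, and the 1 call of the list under median-ratio scaling was a higher one. In morulae Creld2 was lower, at 48.5 and 52.2 FPKM against 62.5 and 84.8 FPKM (-0.52 ± 0.20; limma, unadjusted P = 0.035, adjusted p = 0.225), and Dnajb9 was higher, at 212 and 331 FPKM against 188 and 155 FPKM (0.63 ± 0.24; limma, unadjusted P = 0.036, adjusted p = 0.227). Both morula calls were lost with no trended prior and without control 2 or TMZ library 2. That of Creld2 was also lost with median-ratio scaling and without TMZ library 1, and that of Dnajb9 with no filter. The list median was -0.36 at the 8-cell stage and -0.12 in morulae, beside -0.19 and -0.08 over all entries. At the 8-cell stage the TMZ libraries of 6 of the 12 lay below both controls and those of 1 above. Over all entries 29.6% lay below and 8.09% above. Log2 fold changes were negative for 10 of the 12, against 69.1% of all entries.

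**Figure D4:**
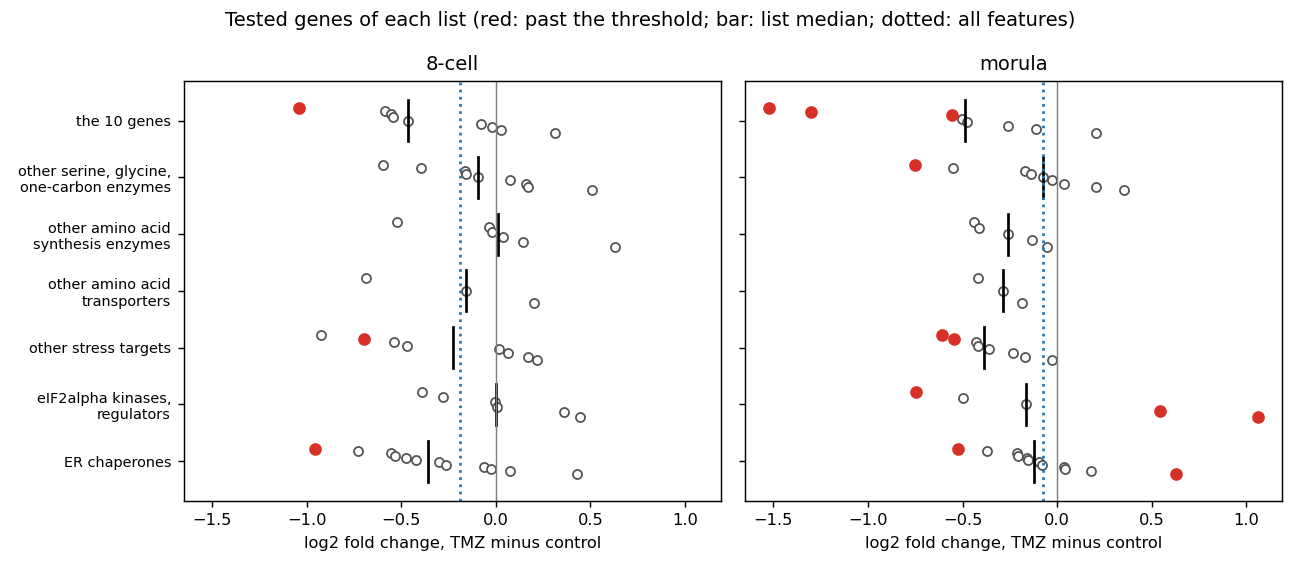
Log2 fold change of FPKM + 1, TMZ minus control (horizontal axis), of every tested gene of the 10 genes and 6 further lists (rows), at the 8-cell stage (left) and in morulae (right). Red points passed the threshold, black bars are list medians and the dotted line is the median of all entries. Among the lists drawn, the 10 genes have the lowest median in morulae (-0.49), and Impact (1.06) is the highest point. The preimplantation markers are not drawn and had a lower median in morulae (-0.71).

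Markers of the preimplantation embryo and leftover early transcripts were compared in the same way. Of 8 tested preimplantation markers, 5 were lower under TMZ past the threshold, where 10.7% of all entries were: Pou5f1, at 18.97 and 11.03 FPKM against 30.2 and 42.4 FPKM in controls (-1.25 ± 0.29), Nanog (-0.98 ± 0.18), Tead4 (-0.88 ± 0.22), Cdx2 (-0.80 ± 0.30) and Tfap2c (-0.63 ± 0.22). Pou5f1, Nanog and Tead4 stayed past it in all 11 alternatives. None was higher, but 1 was with median-ratio scaling (with 4 lower), without control 2 (with 3 lower) and without TMZ library 1 (with 5 lower). The summed level of the 9 markers, nearly all of it Dppa3, ran from 10967 to 13369 FPKM in controls and from 14234 to 17684 FPKM under TMZ. Leftover oocyte and early-stage transcripts (7 of 8 assigned) summed to 8.09 and 17.0 FPKM in controls and 8.40 and 12.2 FPKM in TMZ morulae. The part of developmental stage in the lower Phgdh, Shmt2 and Atf4 values was not tested. At the 8-cell stage none of 7 tested preimplantation markers passed, where 6.31% of all entries did. Without TMZ B this count changed, as did that over all entries. Of the 6 leftover transcripts tested 1 passed, beside the same 6.31%: Zscan4d, at 3.89 and 2.45 FPKM under TMZ against 0.345 and 0.163 FPKM (1.72 ± 0.38). It lies next to paralogs from which it may not be separable.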

How the data were processed

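RNA was measured in 8 libraries of mouse embryos, 2 in each of 4 groups taken from the labels. The authors trimmed reads with fastp 0.23.4, aligned them to GRCm39 with STAR 2.7.9a and counted fragments with featureCounts 2.0.6, per their processing notes, and deposited FPKM values in a table per stage. The Ensembl release and the strand setting are not given in the sources used here, so overlapping genes may share fragments. The authors' DESeq2 test on counts was not repeated, since counts were not used here as a main unit.

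Each FPKM value is a whole number of fragments over gene length and library total, which gave the totals and, up to a whole factor, the lengths (recovered numbers were whole within 3.84e-09). Lengths were aligned by a pair hidden Markov model (Python 3.11.15, numba 0.67.0), in identifier order, to GENCODE vM39 exonic lengths built from transcripts numbered up to 250000, a limit picked for its exact matches. Entries were named at a posterior of at least 0.95: 27874 of 31899 and 25750 of 29202. Of 23182 genes named in both tables, 41 had incompatible lengths and were dropped. Among 12712 genes named by each table alone with values in all libraries, none had. A first version of the model, run on each table alone, left Atf4, Shmt2 and Asns under 0.95 in 1 or both tables. The allowed length spread was then widened and lengths were shared between tables after those member posteriors and FPKM values had been seen. In a test, the deposited entries were aligned again to a reference with decoy genes inserted and some assigned genes removed. Few entries went to decoys. Entries of the removed genes were given to a wrong gene nearly as often as they were left unnamed. The posteriors are therefore too high for genes missing from the reference.

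TMZ and control were compared within each table by limma 3.58.1 (R 4.3.3) with a trended prior on log2(FPKM + 1), keeping entries whose mean was 1 FPKM or more, and p-values were Benjamini-Hochberg adjusted over all entries tested. The pseudocount of 1 understates changes of low genes. The stage difference was an interaction term over both tables. The threshold was P below 0.05 before adjustment, together with more than 0.5 on the log2 scale. With 2 against 2 libraries a permutation test cannot pass 0.05, so none was run. Members and gene lists were chosen with earlier results of these data known. Named genes were the 10 members and, from each list, those past the threshold without overlap between groups, at most 3 in each direction per stage. The markers Dppa3, Sox2, Klf4, Nanog, Pou5f1, Tead4, Cdx2, Gata3, Tfap2c, Zscan4d, Zp3, Bmp15 and Zp1 were named after their values were seen. The comparison within each stage, with the settings as reported, was also run on simulated fragment numbers. The fit of the stage difference was not. Promoter windows were from RefSeq (GRCm38.p6). The alternatives are given in the closing section.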

Additional observations from a re-analysis of the deposited data

Results flagged for a closer look

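Phgdh was set apart by a test of the difference between stages: its TMZ effect was lower in morulae than at the 8-cell stage by a log2 difference of -1.55 ± 0.41 (limma interaction, unadjusted P = 0.00432, adjusted p = 0.424). The value was -1.59 with a pseudocount of 0.1 and -1.71 with median-ratio scaling. The groups of 2 libraries were too small for a test of single outlying libraries.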

How the results depend on the processing

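Over all entries, raising the filter to a mean of 5 FPKM, which also tests fewer entries, left 281 of 632 calls at the 8-cell stage and 1058 of 1733 in morulae by number. Leaving out 1 library at a time gave 276 to 1844 calls at the 8-cell stage (999 without TMZ A, 1844 without TMZ B, 287 and 276 without control 1 and 2) and 786 to 1869 in morulae (786 without TMZ 2, 1128 without control 2). Median-ratio scaling turned the morula split from 693 higher and 1040 lower to 1022 and 687.

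Of the members, the 1 call at the 8-cell stage became 0 with median-ratio scaling and 0 to 2 with 1 library left out, and the 3 morula calls became 2 to 4, always including Phgdh and Shmt2 and always lower. Counts of 0 in other lists became 1 in 4 cases with a library left out: the one-carbon enzymes (8-cell, without control 2), the amino acid synthesis enzymes (8-cell, without TMZ A, and morula, without control 1) and the eIF2alpha regulators (8-cell, without TMZ B). The stage difference had 2 members with P under 0.05 in place of 1 with a pseudocount of 0.1 (Asns added) and with median-ratio scaling (Psat1 added). Of the controls, 7 to 9 members had higher morula values when 1 library was left out.

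Some small log2 values changed sign. With median-ratio scaling, Atf4 became 0.21 and Trib3 0.14 at the 8-cell stage, Asns 0.0073 in morulae, and the stage differences of Mthfd2 and Slc3a2 became -0.013 and -0.11. With 1 library left out, the 8-cell values ran from -0.65 (without TMZ B) to 0.50 (without TMZ A) for Atf4, from -0.38 (without control 2) to 0.43 (without control 1) for Phgdh, from -1.33 (without control 2) to 0.40 (without control 1) for Shmt2 and from -0.21 (without control 2) to 0.16 (without control 1) for Trib3. In morulae they ran, without control 1 and without control 2, from -0.31 to 0.085 for Asns, from -1.06 to 0.049 for Slc3a2 and from 0.49 to -0.072 for Trib3. The cause was not tested.

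The morula replicate numbers were not shown to pair the libraries (correlation of same-numbered deviations 0.076 in 2 pairs). With the replicate block 1989 entries and the same 3 members passed, and the adjusted p was 0.00595 for Phgdh, 0.0339 for Shmt2 and 0.151 for Atf4. The only other limma fit with a member at an adjusted p under 0.05 was the filter of 5 FPKM (Phgdh, 0.0461). The 8-cell columns carry no usable numbers. A minimum posterior of 0.99 could change no member, since all had 0.9997 or more. Groups of 2 libraries limit all of these values, and Slc7a5 at both stages and Chac1 in morulae were under the filter on low values (their values without it had unadjusted P of 0.262, 0.043 and 0.128).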
